A study of Mus musculus with 32 samples.

Results

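The B-lineage genes described here are 9 genes listed by symbol: *Cd79a*, *Cd79b*, *Ms4a1*, *Pax5*, *Ebf1*, *Rag1*, *Rag2*, *Vpreb1* and *Igll1*. They were looked up by gene name in the 2 RNA-seq tables of the series, and IGF2BP3 eCLIP peaks were assigned to them when the peak name began with the gene's Ensembl ID. Of the 9 genes, 8 had a row in both tables, which list 26560 genes for Lin- cells and 25887 genes for CD11b+ cells. *Rag1* had no row that was analysed here, so it has no expression value below, while its peaks were searched in every eCLIP library. All samples came from cells transduced with MLL-Af4 or from mice transplanted with such cells. Whether every CD11b+ cell carried the fusion is not stated. Lin- cells were lineage-depleted mouse bone marrow cells, transduced with a retrovirus carrying MLL-Af4, selected with G418 and cultured with hematopoietic cytokines. CD11b+ cells were isolated on magnetic beads from the spleens of mice with MLL-Af4 leukemia. RNA-seq covered WT/MLL-Af4 and I3KO/MLL-Af4 cells, where I3KO is a germline deletion of *Igf2bp3* that arose from Vav1-Cre deletion of a floxed exon, with 3 libraries of each genotype per cell type. IGF2BP3 eCLIP, which maps the RNA sites crosslinked to this RNA-binding protein, covered 6 Lin- libraries (3 biological and 3 technical replicates) and 4 CD11b+ libraries (2 biological and 2 technical replicates), each with a size-matched input (smInput), all from WT/MLL-Af4 cells. The labels name no tissue for the CD11b+ eCLIP cells, and the names of all eCLIP libraries begin with bm. The labels do not say which technical replicate belongs to which biological one.

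During B-cell development, EBF1 and PAX5 establish and hold the B-cell program, and the RAG1 and RAG2 proteins cut DNA at immunoglobulin gene segments. The surrogate light chain, made of VpreB and lambda5 (encoded by *Igll1*), pairs with the immunoglobulin mu heavy chain to form the pre-B cell receptor. CD79A and CD79B carry the signal of both this receptor and the mature B-cell receptor, and MS4A1 (CD20) appears on mature B cells. MLL-AF4 causes B-lineage leukemia in infants, whereas the mouse model used here gives myeloid disease.

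Only *Ebf1* carried IGF2BP3 peaks among the 9 genes, 3 in all, and their sequences are shown first because they are the whole of the eCLIP signal in these genes. In each line the peak is in capitals and the 30 bases on either side are in lower case, read 5′ to 3′ on the plus strand of mm10, on which *Ebf1* is transcribed. The first is the peak of CD11b+ replicate 2, the second that of Lin- replicate 2 and the third that of Lin- replicate 4, a technical replicate.
*Ebf1* CD11b+ replicate 2, chr11:44779531-44779588: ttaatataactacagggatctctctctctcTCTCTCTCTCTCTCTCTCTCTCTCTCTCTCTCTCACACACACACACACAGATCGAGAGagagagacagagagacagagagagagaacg
*Ebf1* Lin- replicate 2, chr11:44845149-44845149: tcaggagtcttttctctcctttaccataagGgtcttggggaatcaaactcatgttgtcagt
*Ebf1* Lin- replicate 4, chr11:44890698-44890762: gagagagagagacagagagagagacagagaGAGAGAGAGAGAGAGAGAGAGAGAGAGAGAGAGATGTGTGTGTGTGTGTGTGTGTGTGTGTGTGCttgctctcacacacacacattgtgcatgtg
The CD11b+ peak spanned 58 bases and held a run of TC repeats 34 bases long that passed into CA repeats, with 11 overlapping occurrences of ACACAC or CACACA. The second peak was a single base outside any annotated repeat. The third spanned 65 bases and held a GA run 34 bases long followed by TG repeats. No ACACAC or CACACA lay within it, although 7 lay in the bases shown beside it. Peaks 1 base long made up 0.143% of the 41132 filtered Lin- peaks, and the median Lin- peak was 48 bases long. A dinucleotide repeated at least 10 times in a row occurred in 7.32% of all filtered Lin- peaks and in 27.8% of the 33246 filtered CD11b+ peaks. ACACAC or CACACA occurred in 8.25% and 16.4% of them.

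All 3 peaks lay in introns of *Ebf1*, a gene of 391 kb on chromosome 11 (44617317 to 45008091, plus strand). In the GENCODE transcript with the most exon bases, which has 16 exons, the CD11b+ peak and the first Lin- peak fell in intron 6, which is 226 kb long. They were 89.5 kb and 23.9 kb from the nearest exon. The other Lin- peak fell in intron 8, 6.74 kb from the nearest exon. No 2 of the peaks lay closer than 45.5 kb to each other, and none overlapped a peak of any other library, whereas 69.2% of all Lin- and 69.7% of all CD11b+ filtered peaks overlapped a peak of another library of the same cell type. The p deposited with each peak was 0.00872 for the CD11b+ peak, 0.0201 for Lin- replicate 2 and 0.0279 for Lin- replicate 4. All 3 exceeded the medians over all filtered peaks, which were 0.00107 in Lin- and 0.000247 in CD11b+ cells.

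**Figure D1:**
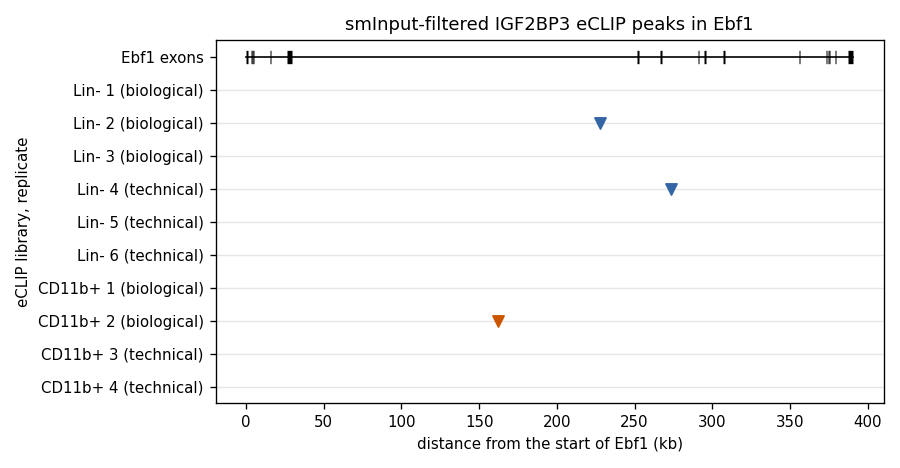
Filtered IGF2BP3 eCLIP peaks (triangles) along *Ebf1*, with the distance from the start of the gene in kb on the x axis and 1 row per eCLIP library. The top row shows the annotated exons, drawn with a minimum width. The 3 peaks lie in 3 libraries, between 162 and 273 kb from the start of the gene, and 7 libraries have none.

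By library, *Ebf1* had 1 filtered peak among 10042 in Lin- replicate 2 and 1 among 4040 in Lin- replicate 4, or 0.996 and 2.48 per 10000 peaks. It had none in Lin- replicates 1, 3, 5 and 6, which held between 4510 and 8685 peaks. In CD11b+ cells it had 1 peak among 10054 in replicate 2, or 0.995 per 10000, and none in replicates 1, 3 and 4. Of the biological replicates, those with an *Ebf1* peak were the ones with the most peaks in each cell type. Lin- replicate 4, the technical replicate with an *Ebf1* peak, had the fewest peaks of the Lin- libraries. The biological replicates of both cell types overlapped. Their mean was 0.332 ± 0.575 (SD, n = 3) per 10000 in Lin- and 0.497 ± 0.703 (SD, n = 2) in CD11b+ cells, a difference of 0.165 that was smaller than the spread (two-sided exact permutation test over 10 splits, p = 1). After Benjamini-Hochberg adjustment over all 9290 genes with a peak in a biological library, p was also 1. With 3 libraries against 2 the smallest p possible was 0.1, so no gene could reach an unadjusted p under 0.05, and the smallest adjusted p of any gene was 0.696. Non-overlap between the biological libraries of both cell types was seen for 1856 of the 9290 genes (20.0%). Read depth per eCLIP library is unknown.

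*Cd79a*, *Cd79b*, *Ms4a1*, *Pax5*, *Rag1*, *Rag2*, *Vpreb1* and *Igll1* had no peak in any of the 10 eCLIP libraries, either before or after the smInput filter. A gene without a peak is not thereby shown to be unbound. The smInput libraries, with 217 to 1808 peaks in Lin- and 1381 to 1885 in CD11b+ cells, had 0 peaks in the 9 genes, and the 3 *Ebf1* peaks were present both before and after the filter. The count was therefore 1 of 9 genes with a filtered peak in Lin- cells, where 26.5% of all 26560 genes had one, and 1 of 9 in CD11b+ cells, where 25.6% of all 25887 genes had one. None of the 9 had a peak in at least 2 biological replicates, against 13.7% of all genes in Lin- and 10.2% in CD11b+ cells. A peak in a single library was found for 32.7% of the genes with a filtered peak in Lin- and for 36.8% of those in CD11b+ cells. The count for the 9 genes was 0 in each cell type without biological replicate 2 when only biological replicates were used.

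These shares varied steeply with expression. In Lin- cells the share of genes with a filtered peak was 2.75% in decile 1 of mean level, the lowest, 8.89% in decile 6, which held *Ebf1* and *Rag2*, and 87.6% in decile 10. In CD11b+ cells it was 4.21% in decile 1, 8.73% in decile 5, which held *Ebf1*, and 71.6% in decile 10. *Cd79b*, the most highly expressed of the genes, stood in decile 7 in Lin- and decile 8 in CD11b+ cells, in which 23.7% and 45.7% of genes had a peak, and it had none. The others stood in deciles with shares of 3.39% to 8.89% in Lin- and 4.21% to 14.8% in CD11b+ cells. *Ebf1* is long, as is *Pax5*, a gene of 186 kb, and the shares differed by length. Among genes at least 100 kb long in the same decile as *Ebf1*, 27.3% had a peak in Lin- and 38.6% in CD11b+ cells. For genes of that length in the decile of *Pax5* these shares were 19.5% and 45.7%. The part of level and length in the members' counts was not tested.

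**Figure D2:**
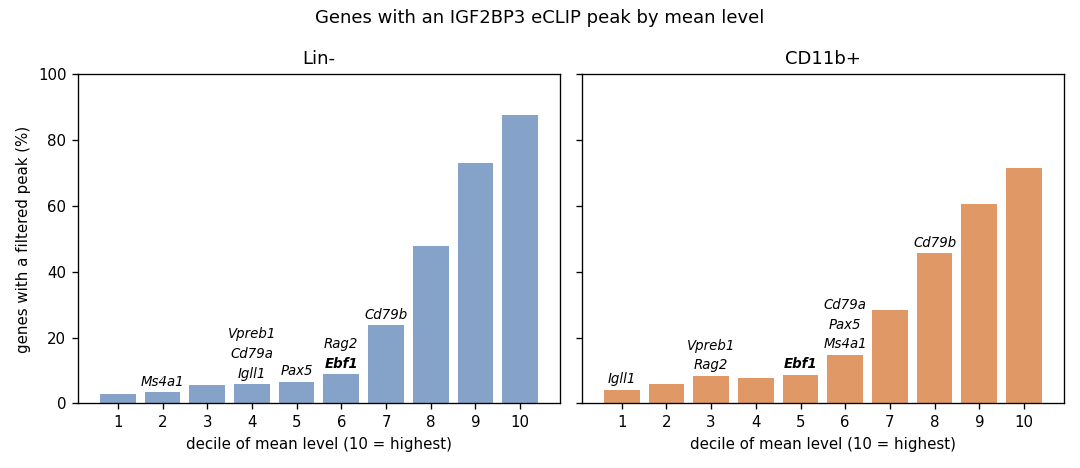
Percentage of genes with at least 1 filtered IGF2BP3 eCLIP peak (y axis) in each decile of mean level (x axis, 10 is the highest) for Lin- (left) and CD11b+ cells (right). Names mark the decile that holds each B-lineage gene, in bold for *Ebf1*, the member with a peak. None of the genes stands in deciles 9 and 10, where the shares are 60.8% or more.

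ACACAC and CACACA, the 6-base CA repeats searched on the transcribed strand, were unevenly spread over the unspliced transcripts of the genes. *Ebf1* had 1920 of them (4.91 per kb) and *Pax5* 1113 (5.99 per kb), at percentiles 88.6 and 92.9 of 23550 genes, whose median was 1.69 per kb. *Ms4a1* had 3.74 per kb and *Igll1* 2.71 per kb. *Rag2*, *Cd79b*, *Vpreb1* and *Cd79a* had between 0.208 and 0.768 per kb. *Pax5* had more such repeats per kb than *Ebf1* but fewer in all, and it had no peak. The part of these repeats in the peaks was not tested.

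The RNA-seq level of a gene is given as the authors' mean normalized count over the 6 libraries of a cell type, both genotypes together. The mean leaves the spread over libraries unknown and does not separate the genotypes, so no difference in level below has a test. The tables were normalized separately. Levels are therefore compared first by percentile within a table, and then by the relative level, which is the mean count per 1000000 of the sum of all means in its table. On that scale the median log2 ratio of CD11b+ to Lin- cells over all genes was -0.25, and the ratios below are to be read against it. In these bulk samples, fewer cells of a type and less RNA per cell cannot be told apart.

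The members stood low to middle in both tables, with a median percentile of 42.1 in Lin- and 48.9 in CD11b+ cells. In Lin- cells, 3 of 8 lay above the median of all genes, and in CD11b+ cells 4 of 8 did. *Cd79b*, *Ebf1* and *Rag2* were above it in Lin- cells. *Cd79b*, *Cd79a*, *Pax5* and *Ms4a1* were above it in CD11b+ cells. By relative level, 3 of 8 were at least 2-fold higher in CD11b+ cells (*Ms4a1*, *Cd79a* and *Pax5*), where 23.0% of the 23620 genes in both tables were, and 4 of 8 were at least 2-fold lower (*Rag2*, *Igll1*, *Vpreb1* and *Ebf1*), where 26.7% were.

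**Figure D3:**
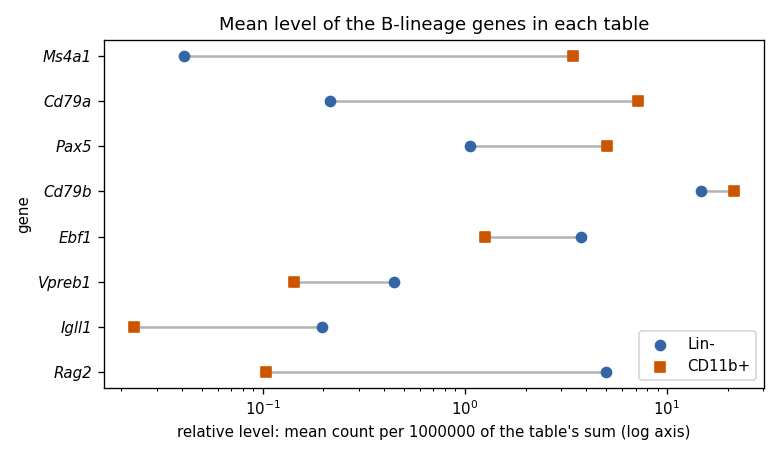
Relative level of each B-lineage gene, its mean normalized count per 1000000 of its table's sum (x axis, log scale), in Lin- (circles) and CD11b+ cells (squares), 1 row per gene, ordered by the ratio between the tables. Each point is the authors' mean over 6 libraries, so no error can be drawn. *Ms4a1* (0.0410 against 3.42) and *Rag2* (4.97 against 0.104) are the widest pairs, in opposite directions, and *Cd79b* has the closest pair.

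Among the transcription factors, *Ebf1*, which opens the B-cell program in progenitors, had a mean normalized count of 101 in Lin- (percentile 54.2) and 25.4 in CD11b+ cells (percentile 45.1). Its relative level was 2.99 times higher in Lin- cells. *Pax5* (chromosome 4, 44524757 to 44710487, minus strand), which keeps cells committed to the B lineage, stood the other way. Its mean was 28.5 in Lin- (percentile 45.5) and 102 in CD11b+ cells (percentile 55.4), a relative level 4.75 times higher in CD11b+ cells. Per kilobase of exon, the mean of *Ebf1* was 3.21 times that of *Pax5* in Lin- cells, and the mean of *Pax5* was 4.43 times that of *Ebf1* in CD11b+ cells.

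*Rag2* (chromosome 2, 101624718 to 101632529, plus strand), one of the recombinase subunits, had the widest difference on the lower side in CD11b+ cells. Its mean normalized count was 134 in Lin- (percentile 56.2) and 2.11 in CD11b+ cells (percentile 22.6), a relative level 47.7 times higher in Lin- cells. The CD11b+ mean amounts to about 12.6 normalized counts summed over the 6 libraries. *Rag2* lies within *B230118H07Rik*, a gene on the opposite strand whose exons cover 6.07% of the *Rag2* exon bases and whose means were 400 and 158. *Rag1* (chromosome 2, 101638282 to 101649501, minus strand) also lies within *B230118H07Rik*, here on the same strand, with 1.21% of its exon bases shared. *Dntt*, which adds nontemplated bases at recombination joints and was picked out after its values were seen, had a mean of 129 in Lin- and 0.313 in CD11b+ cells, near the lowest mean listed in that table (0.310). Beside *Rag2*, 10 genes of the V(D)J recombination and end joining list were in both tables. Of these, 1 was at least 2-fold higher and 4 at least 2-fold lower in CD11b+ cells, against 23.0% and 26.7% of all genes in both tables.

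The surrogate light chain genes were low in both tables. *Vpreb1* (chromosome 16, 16868403 to 16870843, minus strand) had a mean of 12.02 in Lin- (percentile 38.8) and 2.87 in CD11b+ cells (percentile 25.9), a relative level 3.14 times higher in Lin- cells. *Igll1*, which lies 4.42 kb away on the same strand (16860671 to 16863985), had a mean of 5.28 in Lin- (percentile 31.6) and 0.465 in CD11b+ cells (percentile 5.38). The *Igll1* means correspond to about 32 and 3 normalized counts over 6 libraries each. Its relative level was 8.54 times higher in Lin- cells. With these rounded sums treated as read counts, the 95% binomial interval ran from 2.51 to 40.9. The interval covers counting error only, and it is approximate because normalized sums are not read counts. *Vpreb2*, a near copy of *Vpreb1*, stood on the other side, with means of 0.676 and 1.28 and a relative level 2.52 times higher in CD11b+ cells. *Vpreb3* had means of 0.504 and 0.483. *Vpreb1* also overlaps *Top3b*, a gene on the opposite strand whose exons cover 9.01% of the *Vpreb1* exon bases. The means of *Top3b* were 2948 in Lin- and 1980 in CD11b+ cells, and its part in the *Vpreb1* values was not tested.

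*Vpreb1* and *Vpreb2* have coding sequences of 426 bases that differ at 9 positions (97.9% identity), so reads could be divided between them or lost in counting, and their values are uncertain. The stretch of 100 bases with the most differences, coding positions 279 to 378, is shown from mm10 with the 5 differing bases in capitals, read 5′ to 3′ on each gene's own strand (minus for *Vpreb1*, plus for *Vpreb2*).
*Vpreb1*, chr16:16868647-16868746: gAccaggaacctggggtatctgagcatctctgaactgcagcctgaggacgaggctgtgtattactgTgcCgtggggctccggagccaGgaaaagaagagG
*Vpreb2*, chr16:17980930-17981029: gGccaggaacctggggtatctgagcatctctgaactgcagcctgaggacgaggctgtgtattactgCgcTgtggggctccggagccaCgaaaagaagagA
The longest stretch without a difference over the whole coding sequence is 196 bases.

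The B-cell receptor chains behaved differently from each other. *Cd79b* (chromosome 11, 106311341 to 106314762, minus strand) had the highest level of the members in both tables, with means of 397 in Lin- (percentile 65.1) and 433 in CD11b+ cells (percentile 70.4), and its relative level was 1.45 times higher in CD11b+ cells. *Cd79a* (chromosome 7, 24897381 to 24902197, plus strand) had a mean of 5.77 in Lin- (percentile 32.3) and 146 in CD11b+ cells (percentile 58.3), a relative level 33.7 times higher in CD11b+ cells. The products of both genes work as a pair, yet per kilobase of exon the mean of *Cd79b* was 70.1 times that of *Cd79a* in Lin- cells and 3.02 times in CD11b+ cells. *Ms4a1* (chromosome 19, 11249675 to 11266241, minus strand), which encodes CD20, had a mean of 1.10 in Lin- (percentile 15.5), about 6.60 normalized counts over 6 libraries, and 69.1 in CD11b+ cells (percentile 52.6). Its relative level was 83.6 times higher in CD11b+ cells, the widest ratio among the members.

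Per kilobase of exon, the order of the mean normalized counts in Lin- cells was *Cd79b* (278), *Rag2* (39.0), *Ebf1* (10.3), *Vpreb1* (10.02), *Cd79a* (3.96), *Pax5* (3.22), *Igll1* (2.44) and *Ms4a1* (0.178). In CD11b+ cells it was *Cd79b* (302), *Cd79a* (100.2), *Pax5* (11.5), *Ms4a1* (11.2), *Ebf1* (2.60), *Vpreb1* (2.40), *Rag2* (0.615) and *Igll1* (0.215). The medians over all genes were 30.2 and 25.3. *Cd79b* and *Rag2* exceeded this median in Lin- cells, and *Cd79b* and *Cd79a* did in CD11b+ cells. Since the spread over libraries is unknown, neighbours in these orders cannot be called different.

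The bases before the start of transcription are shown for *Igll1* and *Rag2*, 2 of the genes with the widest differences on the lower side in CD11b+ cells, as RefSeq gives them for GRCm38.p6. Each run is the 250 bases before the annotated start, 5′ to 3′ on the strand of the gene, which is minus for *Igll1* and plus for *Rag2*. Capitals mark CAGGTG or its reverse complement CACCTG, a core that E proteins such as TCF3 bind.
*Igll1*, chr16:16863986-16864235: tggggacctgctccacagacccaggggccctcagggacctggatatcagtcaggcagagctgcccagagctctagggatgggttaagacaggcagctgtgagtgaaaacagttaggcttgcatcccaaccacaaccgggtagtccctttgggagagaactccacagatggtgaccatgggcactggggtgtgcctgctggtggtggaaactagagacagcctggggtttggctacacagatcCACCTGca
*Rag2*, chr2:101624462-101624711: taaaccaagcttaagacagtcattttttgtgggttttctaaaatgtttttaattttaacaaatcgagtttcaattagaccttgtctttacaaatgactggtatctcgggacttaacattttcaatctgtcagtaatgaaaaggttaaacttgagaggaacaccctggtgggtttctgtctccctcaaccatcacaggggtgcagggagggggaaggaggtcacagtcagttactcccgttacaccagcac
RefSeq gave such a window for 7 of the 9 genes (8 windows, 2 of them for *Ebf1*). The windows of *Cd79a* and *Vpreb1* and 1 of those of *Ebf1* overlapped an annotated exon. CAGGTG or CACCTG occurred in the windows of 4 of the 7 genes, *Cd79a*, *Igll1*, *Rag1* and *Vpreb1*, and in 17.2% of 32851 windows overall. A core of the EBF1 motif, TCCC and GGGA held apart by 2 bases, which reads the same on both strands, occurred in the windows of 0 of the 7 genes and in 0.779% of all windows. These matches describe the letters in the windows only.

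Among other genes of the B lineage, with the members left out of the counts, 4 genes of the list of pre-BCR and BCR chains were in both tables. Of these, 1 (*Vpreb2*, with means of only 0.676 and 1.28) was at least 2-fold higher and 0 were at least 2-fold lower in CD11b+ cells. The light chain genes *Iglc1* and *Iglc2*, picked out after their values were seen, had means of 19.6 and 39.5 in CD11b+ cells. In Lin- cells they had no row that was analysed here. *Ighm*, the mu heavy chain, was the highest of the list, with means of 10025 in Lin- and 4507 in CD11b+ cells. It had 24 and 7 filtered peaks, summed over 6 Lin- and 4 CD11b+ libraries. A site found in several libraries is counted more than once, so these sums do not compare binding between the cell types. In the list of mature B-cell surface genes, 4 of the 9 others were at least 2-fold higher and 2 at least 2-fold lower in CD11b+ cells. *Cd22*, an inhibitory co-receptor of B cells, had means of 243 in Lin- and 203 in CD11b+ cells. Of the 13 other B-lineage transcription factors in both tables, 3 were at least 2-fold higher and 8 at least 2-fold lower in CD11b+ cells. The highest means among them were those of *Ikzf1* (15686), *Sox4* (9624) and *Spi1* (5619) in Lin- cells, and those of *Spi1* (9752), *Ikzf1* (5460) and *Tcf3* (1640) in CD11b+ cells. *Spi1* drives myeloid as well as B-cell fate. Of the BCR signaling genes, 3 of 11 were at least 2-fold higher and 2 at least 2-fold lower. Over all genes in both tables, 23.0% were at least 2-fold higher and 26.7% at least 2-fold lower in CD11b+ cells. Filtered peaks were found in 10 of 15 listed transcription factors in Lin- and 6 of 15 in CD11b+ cells, *Ebf1* included. These factors had median percentiles of 73.5 and 54.1, in deciles where 47.9% and 14.8% of genes had a peak. Of the 11 BCR signaling genes, 7 and 8 had a peak. Their median percentiles were 93.2 and 97.3, in deciles with shares of 87.6% and 71.6%. Over all genes the shares were 26.5% and 25.6%. The part of level in these counts was not tested.

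Markers of other cell types were read beside these values. *Csf1r*, *Lyz2*, *Mpo* and *Elane* stood at or above the 97.9 percentile in both tables, but other genes of their lists stood lower. The lowest monocyte and macrophage gene stood at percentile 60.2 in Lin- and 41.9 in CD11b+ cells. For the neutrophil granule list the lowest percentiles were 57.1 and 71.5. The summed level of the 9 neutrophil granule genes (relative level) was 5684 in Lin- and 13988 in CD11b+ cells. *Itgam*, which encodes CD11b, had a mean of 17.0 (percentile 41.9) in CD11b+ cells and no row that was analysed here in Lin- cells, and 68.7% of its exon bases are shared with *Gm49368* on the same strand. *Kit*, *Cd34* and *Flt3*, markers of progenitors, stood at or above the 97.4 percentile in Lin- cells and between percentiles 69.1 and 86.2 in CD11b+ cells. The 8 genes of the stem and progenitor list spanned percentiles 63.1 to 98.4 in Lin- and 27.7 to 92.8 in CD11b+ cells. Of these, 1 (*Hoxa10*) was at least 2-fold higher and 6 were at least 2-fold lower in CD11b+ cells, against 23.0% and 26.7% of all genes. In relative level, the T cell list summed to 14.7 in Lin- and 9.96 in CD11b+ cells, and the NK cell list to 1.45 and 0.926. *Cd3d* and *Cd3g*, defining T cell genes, had means of 0.984 and 1.15 in Lin- and 5.17 and 4.87 in CD11b+ cells. *Lck*, another T cell marker, went the other way, with means of 121 in Lin- and 13.5 in CD11b+ cells. Of the 9 T cell genes in both tables, 4 were at least 2-fold higher and 3 at least 2-fold lower in CD11b+ cells. Over all genes in both tables, 23.0% were higher and 26.7% lower by this limit. In the plasmacytoid dendritic list, 4 of 5 genes were at least 2-fold lower in CD11b+ cells, and its summed relative level was 641 in Lin- and 125 in CD11b+ cells. *Siglech* had means of 5631 and 74.7. The plasma cell gene *Jchain* was also higher in CD11b+ cells (means of 9.04 and 102), and 1 of the 4 plasma cell genes in both tables was at least 2-fold higher and 2 were at least 2-fold lower in CD11b+ cells. *Hba-a1*, an erythroid gene, had means of 5.85 and 1268. The part of these cell types in the levels of the members was not tested. *Igf2bp3* itself had means of 2041 and 1355, which pool both genotypes and so do not check the deletion.

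**Figure D4:**
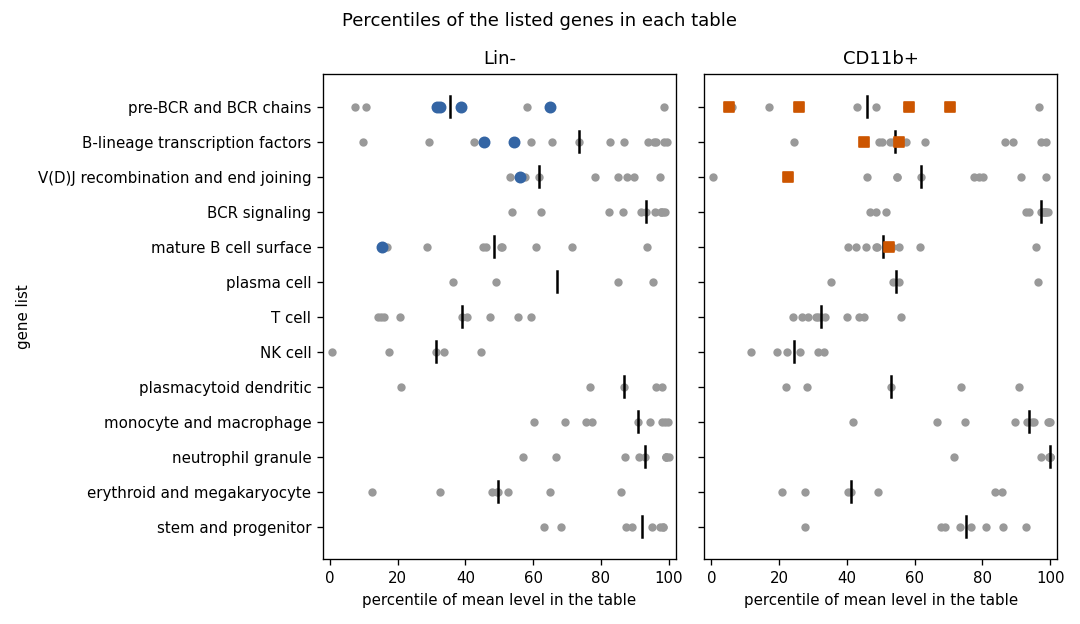
Percentile of each gene by mean level (x axis) for 13 gene lists (rows) in Lin- (left) and CD11b+ cells (right). Large colored points are the B-lineage genes described here, small grey points the other genes and black bars the medians. The neutrophil granule list has a median percentile of 93.1 in Lin- and 99.8 in CD11b+ cells, while the T cell list has 38.9 and 32.4.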

How the data were processed

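The authors mapped single-end, strand-specific poly(A) RNA-seq reads and compared genotypes with DESeq2, with fdrtool named for differential expression in Lin- cells. The submitters' processing notes also name STAR 2.5.3a, Bowtie2 and mm10. From the deposited tables only the mean normalized count, a signal that pools the 6 libraries of a cell type, was used. The log2 fold change between genotypes, its standard error, statistic, p-value, adjusted p and peak annotation are the authors' own comparison and were not used. For eCLIP, the authors ran CLIPper on each library and dropped peaks that overlapped smInput peaks. The deposited files give every peak an unnamed value of at most 0.05, taken here as its CLIPper p-value. Per-library read depth is not given in the sources used here, so peak numbers are the only measure of yield.

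Peaks were joined to genes by the Ensembl ID in the peak name. Positions, exons and exon lengths came from GENCODE M21 (mm10, counted from 1), and the percentile is the rank of a gene's mean among all genes of its table. Exact permutation tests over biological replicates were two-sided, run on all genes with a peak, adjusted by Benjamini-Hochberg, and tested on simulated data. Python 3.11.15, pandas 2.3.3, NumPy 2.4.6, SciPy 1.17.1, pysam 0.24.0, bedtools 2.31.1, samtools 1.23.1 and matplotlib 3.10.9 were used. Genes named are the 9 members, up to 3 genes with the highest mean per list and table, cell type markers, genes that overlap or resemble a member, and those said to be picked out later. A gene of the lists is not reported here. The members and lists were chosen with earlier results of these data known. The relative level and the 2-fold limit were chosen after seeing the data. Alternatives covered the peak filter, peak p below 0.001, gene assignment, replicates, low levels (mean under 10), exon length and scaling. The labels call replicates biological or technical but name no cultures or animals, so p-values measure only the spread between these samples.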

Additional observations from a re-analysis of the deposited data

Results flagged for a closer look

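In CD11b+ cells, *Ebf1* had 0.995 filtered peaks per 10000 in replicate 2 and 0 in the 3 other libraries, so that 1 library stood far from the rest. Such a gap arises by chance in about 1 of 20 groups of this size when values are continuous and independent. Here 2 of the 4 libraries are technical replicates and the gap is the difference between 1 peak and none, so that rate does not apply.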

How the results depend on the processing

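The number of members with a filtered peak was 1 in each cell type before the smInput filter, with biological replicates only and with overlap of the gene body. It was 0 with a peak required in at least 2 biological replicates and 0 with a CLIPper p below 0.001, and it ranged from 0 to 1 in each cell type when a biological replicate was left out, being 0 without replicate 2. The median percentile of the members, 42.1 in Lin- and 48.9 in CD11b+ cells, became 27.1 and 28.7 among genes with a mean of at least 10 (5 members each), 36.5 and 35.5 per kilobase of exon, and 27.4 and 34.2 among protein-coding genes. Each ranks fewer genes or rescales them. The *Ebf1* difference of 0.165 filtered peaks per 10000 was -0.330 with technical replicates included (exact permutation p = 0.567), and ranged from -0.332 to 0.663 when a biological replicate was left out (p = 1 in each). In the replicate block, which sets the shared numbers 1 and 2 side by side, it was -0.000594, and the labels do not say that these numbers pair samples. It was 0 with a CLIPper p below 0.001. At 4-fold, 3 members were higher and 2 lower in CD11b+ cells (*Rag2* and *Igll1* lower). Both other scalings, chosen after seeing the data, left the counts at 3 and 4. The eCLIP results rest on 3 peaks in 10 libraries of unknown read depth.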
